A study of Mus musculus with 4 samples.

Results

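The genes of the cytosolic ribosomal proteins were measured in mouse LSK cells, the bone marrow fraction without lineage markers and with Sca-1 and c-Kit that holds the hematopoietic stem cells and the earliest progenitors. They were taken as the probes whose gene name on the array is Rpl or Rps followed by a number with at most one letter a or x, together with Rplp0, Rplp1, Rplp2 and Rpsa. This gave 130 of the 41174 probes on the array, and they stand for 77 genes, 46 of the large subunit and 31 of the small subunit. Each gene is given by its brightest probe, and this choice used no difference between the genotypes. Paralogs, ribosomal protein kinases and mitochondrial ribosomal proteins fall outside this definition.

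The experiment compared LSK cells that had lost Meis1, a homeodomain transcription factor, with cells that kept it. Both groups carried loxP sites around exon 8 of both Meis1 alleles (Meis1fl/fl) on a C57BL/6J background. The Meis1-KO mice also carried Mx1-Cre, which poly(I:C) switches on through interferon in many tissues and not in blood cells alone, and the Meis1-WT mice lacked Cre. Mice of 4 to 8 weeks were given 1.5 µg/g of poly(I:C) in 4 injections at an interval of 1 day, and cells were taken 1 week later. The labels, and the methods on the mice, describe this treatment for both genotypes, whereas the methods on the arrays call the controls sham-treated. Since these sources differ, an interferon response cannot be told apart from the loss of Meis1. There were 2 arrays per genotype, each from a pool of 6 mice, and the arrays with replicate number 1 were on one slide and those with number 2 on another. RNA came from whole sorted populations, so fewer cells of a type and less RNA per cell cannot be told apart.

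The Meis1 probe read 0.25 and 0.22 in Meis1-KO and 1.02 and 1.45 in Meis1-WT, in log2 signal minus the 75th percentile of the array, the scale used for every level here. Whether this probe lies in the deleted exon was not determined. Kit and Ly6a, which encode c-Kit and Sca-1, were well above background on all 4 arrays. The second Meis1-KO array stood apart from the other 3. Its 75th percentile was 90.3 intensity units against 147 to 154 on the others, 49.2% of its spots were well above background against 54.7% to 57.4%, and its correlation with the others was 0.891 to 0.916 against 0.956 to 0.967 among them. For this reason most results below are given slide by slide or without that array.

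Ribosomal proteins assemble with ribosomal RNA in the nucleolus into a small subunit, which decodes the mRNA, and a large subunit, which joins the amino acids. Their mRNAs are among the most abundant of any cell, and most begin with a cytosine followed by a run of pyrimidines (the 5′ terminal oligopyrimidine, or TOP, sequence) that ties their translation to nutrient signalling through mTOR. Hematopoietic stem cells keep a low rate of protein synthesis, and inherited loss of 1 copy of several of these genes causes Diamond-Blackfan anemia, in which red cell precursors fail.

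No ribosomal protein gene met the criteria of the study, p under 0.01 and a change of over 2-fold (0 of 77 genes, limma). Of all 22008 probes tested, 0.736% met them. At an unadjusted p under 0.05 the count was 0 of 77 genes, against 2.81% of all probes, and the smallest p of any member was 0.201, for Rpl4 (adjusted p = 0.983, limma with Benjamini-Hochberg adjustment). With the slide as a block 0 of 77 genes met the criteria against 1.99% of all probes, and the smallest p was 0.173, again for Rpl4. The methods' t-test called 0 of 77 genes against 0.136% of all probes. The genes nevertheless shared a pattern over the arrays. In 65 of 77 genes the Meis1-KO value was slightly lower than Meis1-WT on slide 1 and higher on slide 2, an order found in 25.7% of all tested probes.

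The 46 large subunit genes had a median difference (Meis1-KO minus Meis1-WT, log2) of -0.10 on slide 1 and 0.79 on slide 2, and 0.36 over both. The 31 small subunit genes had medians of -0.14, 0.94 and 0.40 in the same order. Over all tested probes these medians were 0.025, 0.13 and 0.08. On slide 1 the 77 genes lay between -0.26 (Rpl37) and 0.40 (Rpl31), with an SD across genes of 0.10. On slide 2 they lay between -1.50 (Rpl4) and 1.36 (Rps27a), with an SD across genes of 0.45. The difference of the mean was therefore positive in 43 of 46 large and 30 of 31 small subunit genes, or 94.8% of the members against 56.3% of all tested probes, but in most of them the slides ran opposite ways. This count depended on the processing. With quantile normalization 48 of 77 genes were higher (all probes, 53.3%), with normexp background correction 60 (66.7%), and without scaling 39 (25.6%).

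**Figure D1:**
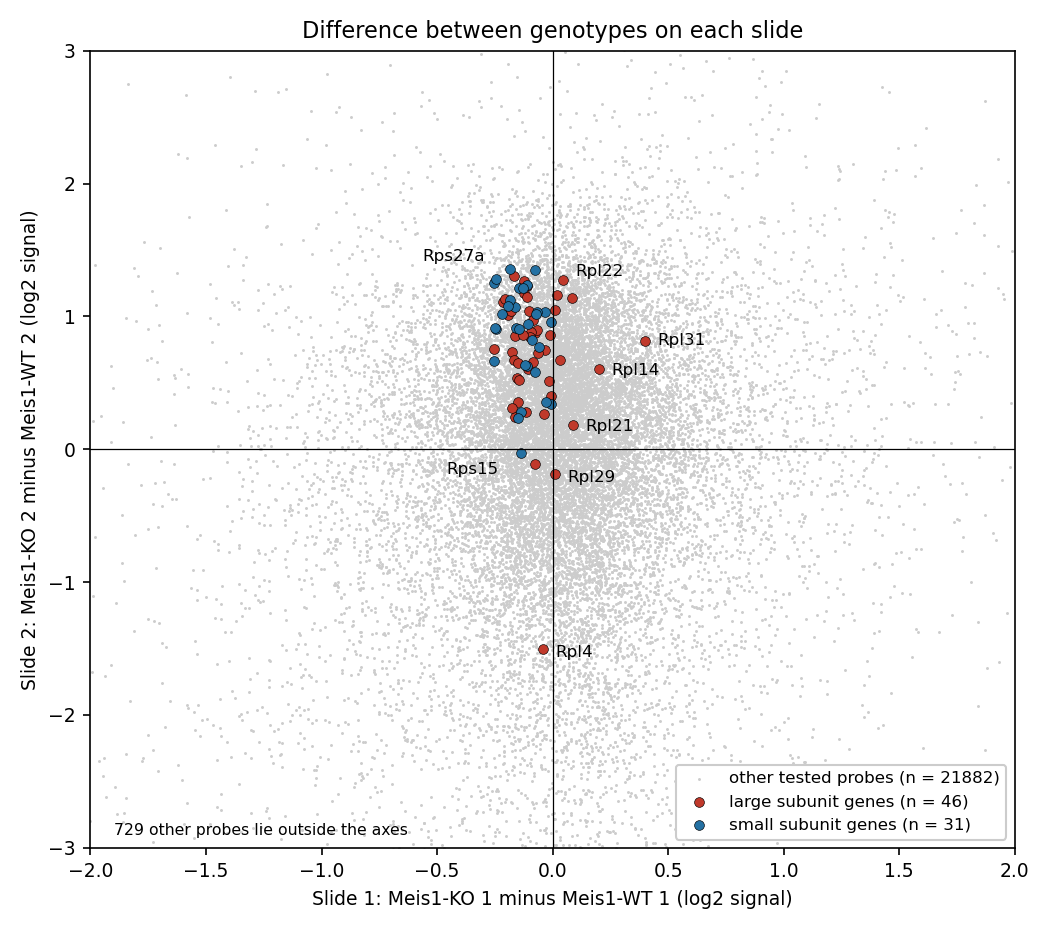
Difference between Meis1-KO and Meis1-WT in log2 signal on slide 1 (horizontal axis) and slide 2 (vertical axis), with 1 point per gene for the 46 large (red) and 31 small (blue) subunit genes and 1 grey point per other tested probe. Most ribosomal protein genes sit left of 0 on slide 1 and between 0.2 and 1.4 on slide 2, and Rpl4 lies far below them at -1.50.

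The second Meis1-KO array carried the pattern. It read higher than the first Meis1-KO array in 74 of 77 genes, with a median gap of 1.04 (all tested probes, 56.3% higher, median 0.16). The 3 exceptions were Rpl4, Rpsa and Rpl29. Between the Meis1-WT arrays the median gap was 0.05, and 44 of 77 genes were higher on the second (all probes, 52.4%). Without the second Meis1-KO array the direction turned, with 60 of 77 genes lower in Meis1-KO and subunit medians of -0.11 (large) and -0.14 (small). Without the first Meis1-KO array the medians were 0.88 and 1.01, and 30 of 77 genes had an unadjusted p under 0.05 against 26.3% of all probes, and 0 of 77 met the criteria of the study against 10.1%. In both of these fits the lone knockout array is assumed to vary like the controls.

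The same was visible in the untransformed signal. The 77 probes took 6.85% and 9.28% of the summed signal of all probes on the Meis1-KO arrays and 7.09% and 7.54% on the Meis1-WT arrays. The large subunit probes took 3.39% and 4.42% in Meis1-KO against 3.50% and 3.78% in Meis1-WT. The small subunit probes took 3.45% and 4.86% against 3.59% and 3.76%. The share was thus lowest on the first Meis1-KO array and highest on the second, with both controls between them.

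The size of the difference on slide 2 depended on how the arrays were brought to one scale. Without any scaling the median differences on slide 2 were 0.015 (large) and 0.17 (small), 45 of 77 genes were higher, and the median of all tested probes was -0.64. Under quantile normalization the slide 2 medians were 0.08 and 0.18. Over both slides, the subunit medians ranged from -0.017 and 0.025 without scaling, through 0.04 and 0.05 with quantile normalization and 0.15 and 0.17 with normexp background correction, to 0.45 and 0.49 with median scaling. Relative to the other probes of the second knockout array the ribosomal protein probes were brighter, while their signal as scanned was close to that of the control on the same slide.

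**Figure D2:**
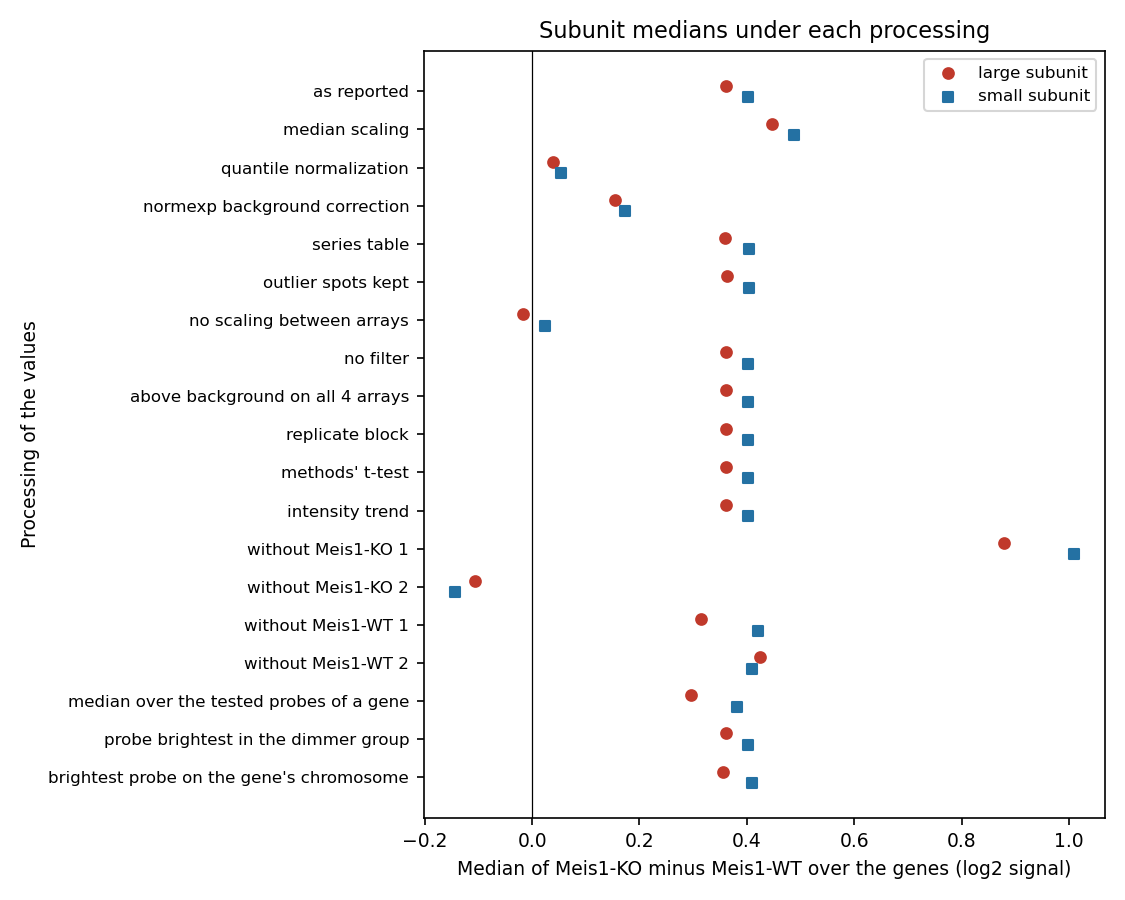
Median over the 46 large (red circles) and 31 small (blue squares) subunit genes of the log2 difference between Meis1-KO and Meis1-WT, on the horizontal axis, for each way of processing the values on the vertical axis. The medians fall below 0 for both subunits without the second Meis1-KO array, come close to 0 with quantile normalization or no scaling, and reach 0.88 and 1.01 without the first Meis1-KO array.

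Brightness of the probe moved with the slide 2 difference. Of the 77 genes, 71 had their probe in the brightest decile of the tested probes. The other probes of that decile had a median slide 2 difference of 0.61, with 80.7% above 0, and those of the dimmest decile had -0.49, with 37.7% above 0. On slide 1 the corresponding medians were -0.02 and 0.06. Over the 126 tested probes of the members, which share the 4 arrays, level and slide 2 difference had a Pearson r of 0.61. Their Spearman rho was 0.61, and slide 1 gave -0.32 and -0.25 for r and rho. Over the 77 brightest probes r and rho were 0.48 and 0.40 on slide 2 and -0.41 and -0.21 on slide 1. Over all tested probes r was 0.26 on slide 2 and -0.045 on slide 1. The signal of a probe depends on its sequence as well as on its transcript, so levels are not compared between genes. The part of brightness in the slide 2 difference was not tested.

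**Figure D3:**
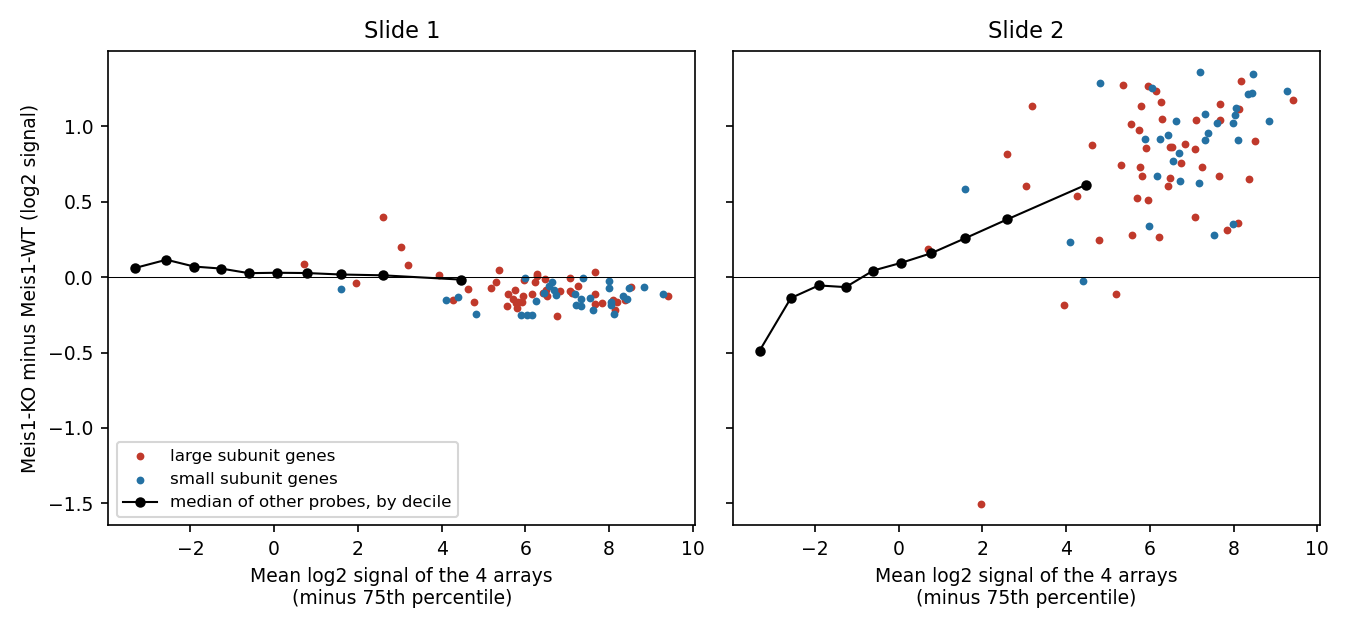
Difference between Meis1-KO and Meis1-WT (log2 signal) against the mean log2 signal of the 4 arrays, for slide 1 (left) and slide 2 (right). Coloured points are the ribosomal protein genes and the black line joins the medians of all other tested probes by decile of brightness, which run from -0.49 to 0.61 on slide 2 and stay between -0.02 and 0.12 on slide 1.

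Markers of other cell types also differed between the arrays. The summed linear level of 5 plasma cell markers was 4.94 and 25.1 in Meis1-KO and 25.7 and 13.1 in Meis1-WT, with Prdm1 above background on 1 array. That of 11 erythroid markers was 104 and 249 in Meis1-KO and 95.2 and 33.0 in Meis1-WT, most of it from Hbb-b1. That of 12 granulocyte and monocyte markers was 185 and 141 against 199 and 76.3, and that of 7 megakaryocyte markers 46.1 and 34.1 against 38.5 and 59.9. B lineage markers summed to 12.03 and 8.84 against 18.8 and 7.79, and Pax5, Igll1 and Blk were above background on no array. T lineage markers stayed between 0.56 and 0.90 on every array, and Cd3e and Cd3g were above background on none. The 11 stem and progenitor markers summed to 154 and 155 against 202 and 151. The plasma cell and erythroid sums, like the ribosomal protein genes, were higher on the second Meis1-KO array than on the first. Unlike those genes, the plasma cell sum was as high on the first Meis1-WT array (25.7). Of 9 tested erythroid genes, 5 were higher on the second Meis1-KO array than on the first. The part of these markers in the pattern was not tested.

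The genes with the largest positive differences were Rpl22, Rps20, Rpl27a, Rpl31, Rpl30 and Rps27a. Rpl22, which is needed for normal T cell development, read 5.03 and 6.36 in Meis1-KO and 4.98 and 5.08 in Meis1-WT, a difference of 0.66 ± 0.56 (SE, n = 2 arrays per genotype, limma, adjusted p = 0.983). Its second probe gave 0.22, from -0.26 and 0.70 on the slides. Rps20 read 8.06 and 9.52 against 8.14 and 8.17, whereas its second, dimmer probe read 2.61 and 2.63 against 2.21 and 2.05. Rps27a, which is made as a fusion with ubiquitin, read 6.79 and 8.19 against 6.97 and 6.84, a difference of 0.59 ± 0.58. At the brightest probes of these genes 3 arrays lay within 0.2 of each other and the second Meis1-KO array lay more than 1.2 above them. Rpl30, at 6.01 and 7.13 against 5.99 and 5.97, and Rpl27a, at 2.97 and 4.02 against 2.89 and 2.89, had the same form.

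**Figure D4:**
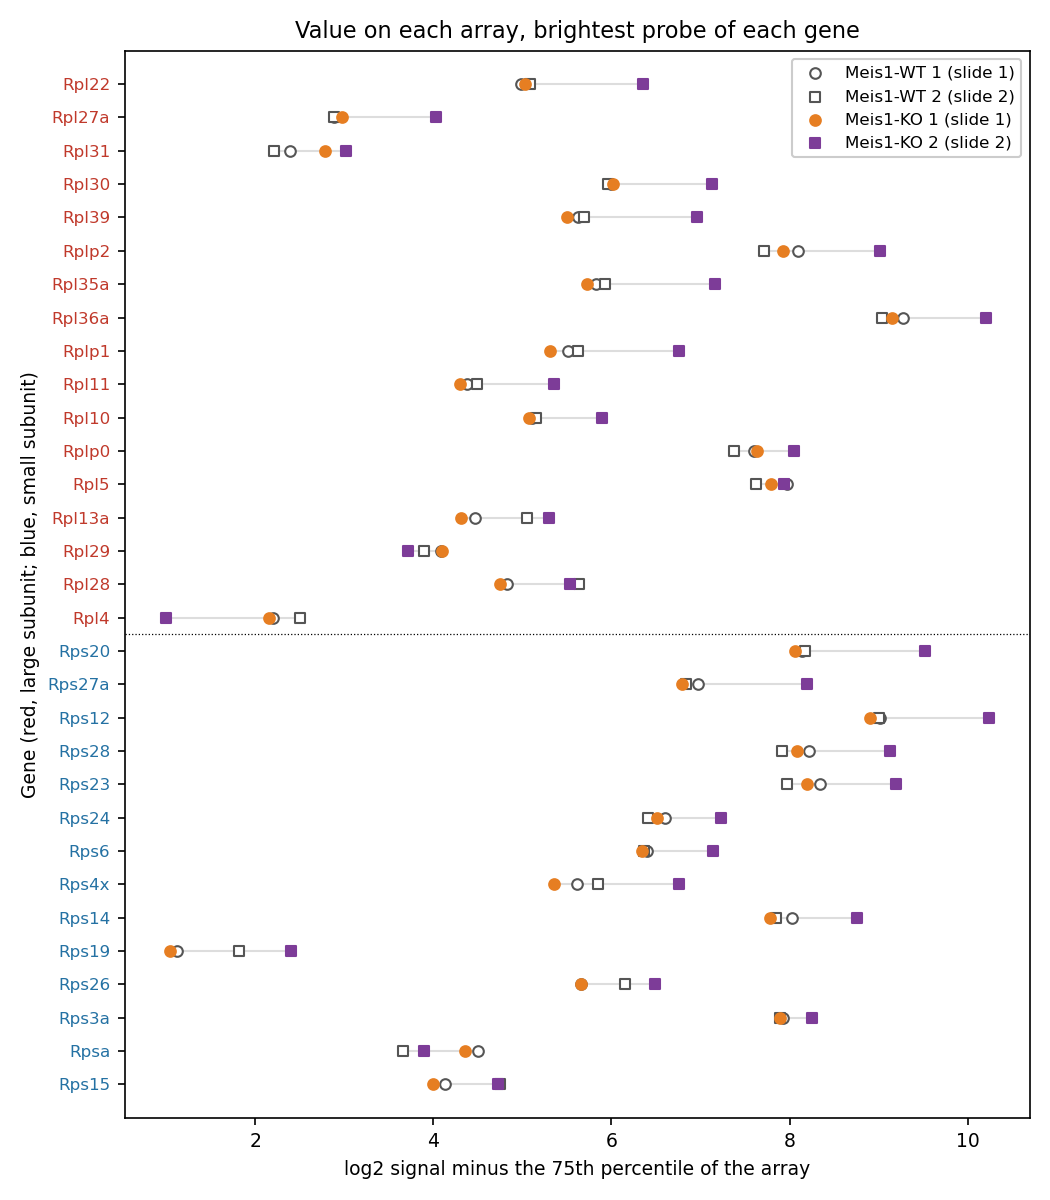
Level on each array (log2 signal minus the 75th percentile of the array) of 31 ribosomal protein genes chosen by the rule for named genes, ordered by difference within each subunit. Filled symbols are Meis1-KO, open symbols Meis1-WT, circles slide 1 and squares slide 2. In most rows the second Meis1-KO array (filled square) lies alone to the right, in Rpl4 alone to the left, and in Rpl28 and Rps15 beside the Meis1-WT array of its slide.

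In 7 genes both Meis1-KO arrays lay above both Meis1-WT arrays, or 9.09% of the members against 16.0% of all tested probes. They were Rpl14, Rpl15, Rpl21, Rpl27a, Rpl30, Rpl31 and Rplp0, all of the large subunit. In 6 of them slide 1 gave a difference between 0.01 and 0.20. Rpl31, which lies beside the exit of the peptide tunnel, was the exception. It read 2.79 and 3.02 in Meis1-KO and 2.39 and 2.21 in Meis1-WT, so that both slides were higher, by 0.40 and 0.82 (difference 0.61 ± 0.43 SE, n = 2 per genotype, limma, adjusted p = 0.983). The second probe of Rpl31 gave 0.25 and 0.33. That of Rpl21 ran the other way, with 0.20 and 0.16 in Meis1-KO below 0.42 and 0.42 in Meis1-WT.

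Rpl4, whose protein reaches into the wall of the peptide tunnel, was the only member with both Meis1-KO arrays below both Meis1-WT arrays, against 10.9% of all tested probes. It read 2.15 and 1.00 in Meis1-KO and 2.19 and 2.50 in Meis1-WT. The slides gave -0.04 and -1.50, and the difference was -0.77 ± 0.54 (SE). This gene has 1 probe on the array, so no second probe bears on it. Rpl28 and Rps15 were lower on both slides by little, -0.08 and -0.11 for Rpl28 and -0.14 and -0.03 for Rps15. In Rpl28 the slides themselves differed, with 4.75 and 4.83 on slide 1 and 5.53 and 5.64 on slide 2. Rpl13a, Rpsa and Rpl5 had differences between 0.04 and 0.07. For each of these 5 genes the difference between the genotypes was smaller than its standard error.

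Rpl29 is measured by 4 probes, and all 4 were lower in Meis1-KO on slide 2, by -0.18, -0.77, -0.97 and -1.07 from the brightest to the dimmest, while slide 1 gave 0.01, 0.04, -0.05 and -0.13. Its probes are shown with that of Rpl4 because these genes ran against the rest. All are given 5′ to 3′ with their positions in mm9, and capitals mark the longest run that a probe shares with another probe of the same gene.
Rpl4 (chr9:64022737-64022796, +): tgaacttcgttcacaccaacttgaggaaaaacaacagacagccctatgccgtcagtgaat
Rpl29 probe 1 (chr9:106331969-106332651, +): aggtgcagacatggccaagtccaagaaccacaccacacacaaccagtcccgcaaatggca
Rpl29 probe 2 (chr9:106332644-106332703, +): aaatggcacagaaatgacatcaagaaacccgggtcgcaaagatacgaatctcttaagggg
Rpl29 probe 3 (chr9:106333436-106333495, +): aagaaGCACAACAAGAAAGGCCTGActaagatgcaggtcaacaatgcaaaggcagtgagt
Rpl29 probe 4 (chr9:106333409-106333468, +): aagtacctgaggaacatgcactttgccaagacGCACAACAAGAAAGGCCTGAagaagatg
Probe 1 covers 683 bases of the genome with 60 bases of sequence, as a probe across a splice junction does. Probes 3 and 4 share 20 bases and are therefore not separate measurements of the transcript.

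Among the genes of the ribosomal stalk, which recruits the elongation factors, Rplp0 read 7.63 and 8.05 in Meis1-KO and 7.60 and 7.37 in Meis1-WT. Rplp1 read 5.30 and 6.76 against 5.51 and 5.63, and Rplp2 read 7.93 and 9.01 against 8.09 and 7.71. The slide differences were 0.03 and 0.67 for Rplp0, -0.20 and 1.13 for Rplp1, and -0.17 and 1.30 for Rplp2. In all 3 the second Meis1-KO array was the highest of the 4. Rpsa, which is also known as the laminin receptor, went the other way between slides. It read 4.35 and 3.89 in Meis1-KO and 4.50 and 3.66 in Meis1-WT, lower on slide 2 in both genotypes. Its second, dimmer probe read 1.94 and 2.74 against 1.86 and 2.16, higher on slide 2 in both.

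A choice of 7 genes, of Diamond-Blackfan anemia or of the 5q- syndrome, followed the pattern of most members. Rps19, the one most often affected in Diamond-Blackfan anemia, read 1.04 and 2.40 in Meis1-KO and 1.12 and 1.82 in Meis1-WT. Rps14, whose loss of a copy underlies the anemia of the 5q- syndrome, read 7.78 and 8.76 against 8.03 and 7.85. Rps24 read 6.52 and 7.23 against 6.60 and 6.41, and Rps26 read 5.66 and 6.49 against 5.66 and 6.15. In each of these 4 the Meis1-KO value was lower on slide 1 (by 0.24 at most) and higher on slide 2. Rpl5 and Rpl11, which with the 5S RNA bind Mdm2 and so connect ribosome assembly to p53, gave slide differences of -0.17 and 0.31 and of -0.08 and 0.87. Rpl35a gave -0.11 and 1.23. Over the 7 genes the pooled difference lay between 0.07 (Rpl5) and 0.56 (Rpl35a), with adjusted p between 0.983 and 0.992 (limma).

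The 4 genes on the X chromosome were no different in form. Rpl36a read 9.15 and 10.21 in Meis1-KO and 9.27 and 9.04 in Meis1-WT, Rps4x gave slide differences of -0.25 and 0.91, Rpl39 of -0.12 and 1.27, and Rpl10 of -0.03 and 0.75. Rps6, the substrate of the S6 kinases, read 6.34 and 7.14 against 6.40 and 6.36, or -0.06 and 0.77. Rps12, Rps23 and Rps28 had pooled differences of 0.56, 0.54 and 0.54, with slide differences of -0.11 and 1.24 for Rps12, -0.14 and 1.22 for Rps23 and -0.13 and 1.21 for Rps28. Without the second Meis1-KO array Rps23 fell to 0.041 and Rps28 to 0.020, and without the first they were 1.03 and 1.06. Rps3a had 0.16 over both slides, from -0.03 and 0.35.

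Of the 77 genes, 40 had more than 1 probe, which allowed the pattern to be read from other sequences of the same transcripts. Of the 130 probes, 126 were tested, and the 4 left out (of Rpl13, Rps19, Rps2 and Rps6) were not the brightest of their gene. Among the 49 tested probes that were not the brightest, 38 were higher in Meis1-KO on slide 2, with a median of 0.56. The 26 of them at a level of 3 or more were all higher, with a median of 0.72. The 23 at a level under 3 gave a median of 0.11, and 12 of them were higher. With the median over all tested probes as the value of a gene, the subunit medians were 0.30 (large) and 0.38 (small).

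**Figure D5:**
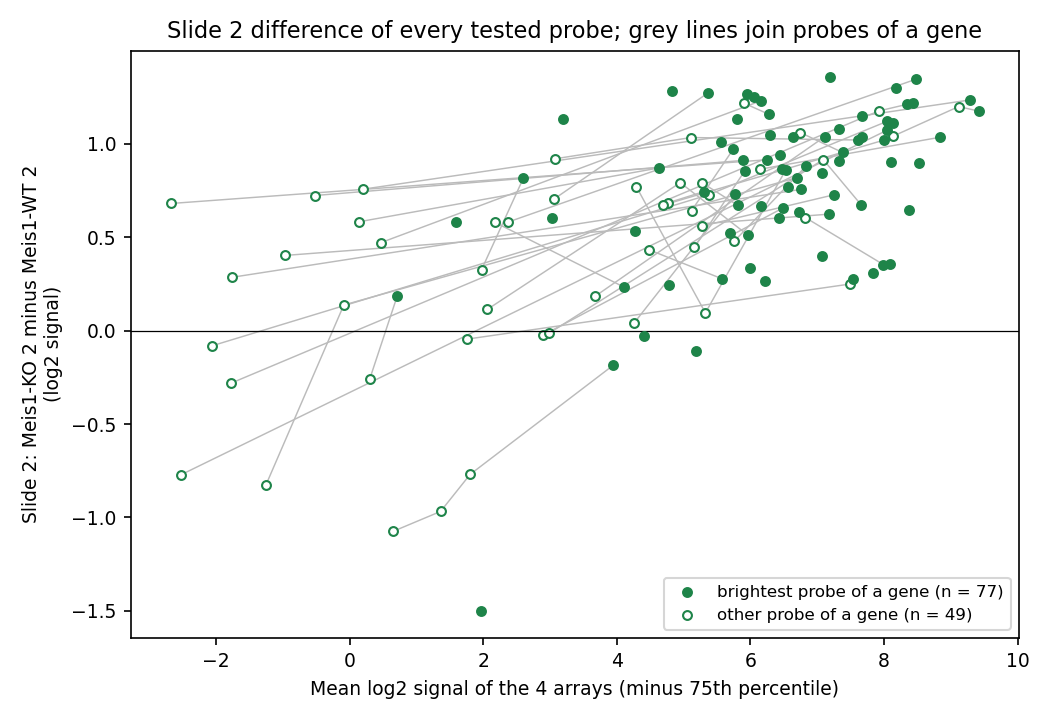
Difference between Meis1-KO 2 and Meis1-WT 2 (log2 signal) for each of the 126 tested ribosomal protein probes against its mean log2 signal, with filled points for the brightest probe of a gene, open points for its other probes and grey lines joining probes of one gene. Above a level of 5 every probe but the one of Rpl28 lies above 0, whereas the dimmer probes fall on both sides.

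Bright probes of one gene differed little in some genes and more in others. In Rpl36a probes 1 and 2, which share 40 bases, gave 1.18 and 1.20 on slide 2, and the third, from another stretch of the transcript, gave 1.04. On slide 2 the first and second probes gave 0.86 and 0.10 in Rpl7a (0.77 for the dimmest), 0.73 and 0.04 in Rpl17, and 0.88 and 0.48 in Rpl23a. Of the 38 genes with more than 1 tested probe, 8 had pooled differences of both signs among their probes, among them Rpl17, Rpl19, Rpl21, Rps13 and Rps28. In Rps13 the brightest probe gave 0.46 and a probe at a level of -2.52 gave -0.47. These genes were chosen after their values were seen.

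Rps24 was the only gene whose probes spanned more than 1 in their pooled difference. Probe 1 gave slide differences of -0.09 and 0.82, probe 2 gave 0.07 and 0.14, and probe 3 gave -0.56 and -0.82. Only probe 1 covers more of the genome (1326 bases) than its own 60 bases, and only it is annotated with a RefSeq mRNA. No run of 15 or more bases is shared among the 3.
Rps24 probe 1 (mm9 chr14:25311322-25312647, +): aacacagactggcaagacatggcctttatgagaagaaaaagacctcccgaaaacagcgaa
Rps24 probe 2 (mm9 chr14:25315989-25316048, +): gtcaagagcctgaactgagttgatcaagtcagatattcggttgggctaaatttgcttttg
Rps24 probe 3 (mm9 chr14:25314669-25314728, +): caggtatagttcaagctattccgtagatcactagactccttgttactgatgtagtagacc

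In Rpl11, Rpl35a and Rps28 a dim probe was placed inside the interval that the brightest probe skips, and shared at most 7 consecutive bases with it. For Rpl11 the levels were 4.63 and 0.14 and the slide 2 differences 0.87 and 0.58. For Rpl35a the levels were 6.16 and 0.47 and the differences 1.23 and 0.47. For Rps28 the levels were 8.34 and -1.78 and the differences 1.21 and -0.28. The pairs of Rpl11 and Rpl35a are shown as examples of 2 probes of one gene that read different parts of its locus.
Rpl11 brightest (mm9 chr4:135605885-135606207, -): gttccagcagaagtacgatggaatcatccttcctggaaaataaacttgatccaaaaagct
Rpl11 inside (mm9 chr4:135605957-135606016, -): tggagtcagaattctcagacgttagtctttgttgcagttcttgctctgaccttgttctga
Rpl35a brightest (mm9 chr16:33057580-33058775, +): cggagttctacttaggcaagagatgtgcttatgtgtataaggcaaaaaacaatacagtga
Rpl35a inside (mm9 chr16:33057674-33057733, +): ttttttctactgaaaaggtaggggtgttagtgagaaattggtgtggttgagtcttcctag

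Ribosomal protein genes have many processed copies in the genome, and this bears on what a probe reads. Of the 130 probes, 79 (60.8%) were annotated with at least 1 predicted RefSeq transcript (XM), against 6.63% of all probes on the array. Whether these transcripts come from processed copies or from the gene itself was not determined. Signal from processed copies and from the gene cannot be told apart, so these levels are uncertain. In 4 probes the annotated position was on a chromosome other than that of the gene, namely the brightest probes of Rpl12 and Rps29 and the dimmer ones of Rplp0 and Rpl10, and 1 probe of Rps4x had no position. With the brightest probe on the chromosome of the gene, the medians were 0.36 over 45 large and 0.41 over 30 small subunit genes. The 3 probes of Rplp0 illustrate this. Probes 1 and 2, on the chromosome of the gene, gave slide differences of 0.03 and 0.67 and of -0.11 and 0.92, and probe 3, placed on chromosome 8, gave -0.34 and -0.01. Probes 1 and 3 are shown.
Rplp0 probe 1 (mm9 chr5:116011423-116011482, +): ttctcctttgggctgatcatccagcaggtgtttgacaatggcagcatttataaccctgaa
Rplp0 probe 3 (mm9 chr8:105389405-105389464, -): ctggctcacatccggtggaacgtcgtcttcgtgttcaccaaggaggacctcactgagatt

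The promoters of the members were compared with all promoters, because the genes moved together on slide 2. RefSeq windows of GRCm38.p6, from 250 bases before to 50 after the start, were at hand for 57 of the 77 genes (67 windows, 32851 in all). A run of at least 5 pyrimidines that opens with C exactly at the start, the form of a TOP sequence, was present in 19.4% of the member windows and 2.51% of all windows. CTCTTTCC on either strand was also in 19.4% against 3.12%, CCGGAAG in 37.3% against 8.86%, GGGCGG in 61.2% against 35.7%, AAGATGGC in 10.4% against 2.75%, and TATAAA in 8.96% against 13.6%. TGACAG, the core of sites bound by Meis and Pbx factors, was in 11.9% against 19.2%, and CACGTG in 11.9% against 7.15%. CTCTTTCC can be part of the pyrimidine run, and the annotated start may miss the true one by several bases. The 13 genes with a pyrimidine run at the start had a median slide 2 difference of 1.02 and the 44 without it 0.86. On slide 1 both medians were -0.11. Genes with a TOP sequence away from the annotated start can fall among the 44. This split therefore does not separate genes with and without a TOP sequence. The 8 genes with TGACAG had a median of 0.86 on slide 2 and the 49 without it 0.87. The medians with and without the motif were 1.23 (5 genes) and 0.86 for AAGATGGC, 1.19 (6 genes) and 0.86 for TATAAA, and 0.63 (6 genes) and 0.90 for CACGTG. They were 0.87 and 0.86 for CTCTTTCC, and the same for CCGGAAG, and for GGGCGG 0.90 and 0.86.

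Stretches from 40 bases before the start to 20 after it are shown for 7 genes with the run, in capitals, and for Rpl4. In Rpl4 no run opens exactly at the annotated start, but a stretch of pyrimidines ends a few bases before it. Whether Rpl4 has a TOP sequence was therefore not determined.
Rpl28 (GRCm38.p6 chr7:4792925-4792984, +): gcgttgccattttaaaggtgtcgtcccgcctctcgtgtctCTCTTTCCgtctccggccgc
Rplp2 (GRCm38.p6 chr7:141447611-141447670, +): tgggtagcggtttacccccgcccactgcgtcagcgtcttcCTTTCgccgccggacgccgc
Rpl35a (GRCm38.p6 chr16:33056442-33056501, +): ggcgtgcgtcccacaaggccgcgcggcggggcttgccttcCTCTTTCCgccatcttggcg
Rpl38 (GRCm38.p6 chr11:114668540-114668599, +): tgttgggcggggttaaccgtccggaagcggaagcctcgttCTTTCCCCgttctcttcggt
Rps6 (GRCm38.p6 chr4:86857348-86857407, -): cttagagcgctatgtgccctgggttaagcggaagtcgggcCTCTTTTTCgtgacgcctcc
Rps18 (GRCm38.p6 chr17:33955646-33955705, -): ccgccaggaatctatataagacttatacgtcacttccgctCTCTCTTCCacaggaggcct
Rps27 (GRCm38.p6 chr3:90213629-90213688, -): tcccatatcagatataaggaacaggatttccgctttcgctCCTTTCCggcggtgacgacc
Rpl4 (GRCm38.p6 chr9:64173347-64173406, +): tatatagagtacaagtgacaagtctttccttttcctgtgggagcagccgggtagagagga
Rpl28 carries the same CTCTTTCC at its start as Rpl35a, and their slide 2 differences were -0.11 and 1.23.

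The other genes of ribosome production and translation were described through lists chosen by role. No gene of any of these lists met the criteria of the study (0 of 246 tested, against 0.736% of all probes), and 1 of 246 had an unadjusted p under 0.05, against 2.81%. With the slide as a block 1 of 246 met them, against 1.99% of all probes, namely Ltv1 of small subunit assembly, named here after its values were seen. It read -2.77 and -1.81 in Meis1-KO and -3.91 and -4.30 in Meis1-WT, where it was not well above background (limma, adjusted p = 0.983, and adjusted p = 0.411 with the block). It passed the filter through Meis1-KO alone, and its level there was at least 2.87-fold higher, against the lowest signal well above background on each Meis1-WT array or the signal of the probe itself where that was higher.

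For each list the lowest and the highest gene are named among those above background on all 4 arrays, with the difference on slide 1 and on slide 2. Elongation factors (7 tested) had a median difference of 0.32, and -0.07 and 0.69 on the slides. They ran from -0.11 for Eef2, the translocase (-0.11 and -0.12), to 0.53 for Eef1d (-0.07 and 1.12). Other mRNAs with a TOP sequence (20) had a median of 0.34, and -0.06 and 0.77 on the slides. They ran from -0.20 for Pabpc1, the poly(A) binding protein (0.01 and -0.40), to 0.60 for Gnb2l1, which encodes the small subunit scaffold Rack1 (-0.04 and 1.25). Both lists, some of whose genes are shared, were thus lower on slide 1 and higher on slide 2 in their medians. Initiation factors (36) had a median of 0.18, and -0.01 and 0.37 on the slides, with a wide range on slide 2, where Eif5b, which joins the subunits, was at -2.82 (0.05 on slide 1) and Eif3l at 1.19 (-0.10 on slide 1).

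The machinery of RNA polymerase I (22) had a median of 0.27, and -0.03 and 0.52 on the slides, from -1.11 for Nolc1, a nucleolar phosphoprotein (0.46 and -2.67), to 0.87 for Polr1c, a subunit of polymerases I and III (0.03 and 1.71). Taf1a, above background on 3 arrays and named here after its values were seen, was lower than Nolc1, at -1.44 (-0.48 and -2.40). The core proteins of the small nucleolar particles (8) had 0.28, and 0.07 and 0.51 on the slides, from -0.64 for the pseudouridine synthase Dkc1 (0.15 and -1.42) to 0.57 for Nop10 (0.15 and 0.99). Small subunit assembly factors (41) had 0.22, and 0.04 and 0.43 on the slides. Apart from Ltv1, for which there is only a bound, they ran from -0.49 for Tsr2, the chaperone of Rps26 (-0.19 and -0.80), to 0.97 for Nat10 (0.29 and 1.65). Large subunit assembly factors (43) had 0.13, and 0.08 and 0.11 on the slides, from -0.61 for the ATPase Mdn1 (0.36 and -1.59) to 0.87 for Nle1 (0.48 and 1.26). In Nolc1, Dkc1 and Mdn1 the slides thus ran opposite ways, and in Tsr2, Nat10 and Nle1 the same way. Of 6 paralogs of ribosomal proteins 4 were tested, from 0.01 for Rpl7l1 (0.0033 and 0.026) to 0.76 for Rps27l (0.03 and 1.49). All tested probes had a median of 0.08 on this scale.

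The 75 mitochondrial ribosomal protein genes, whose products form the separate ribosome of that organelle, gave a median of 0.51, with 0.01 on slide 1 and 0.91 on slide 2. Of them 40 were higher in Meis1-KO on both slides and 0 lower on both, against 8 and 3 of the 77 cytosolic genes and 30.3% and 21.0% of all tested probes. They ranged from -0.15 for Mrps23 (-0.36 and 0.06 on the slides) to 0.94 for Mrpl14 (0.37 and 1.52). None met the criteria of the study or had an unadjusted p under 0.05. Under quantile normalization their slide medians were 0.05 and 0.56, beside -0.01 and 0.08 for the large and -0.05 and 0.18 for the small cytosolic subunit. Without scaling they were 0.02 and 0.14. The counts moved with the scaling as well, to 50 higher and 3 lower on both slides with quantile normalization and to 27 and 9 without scaling. The difference between mitochondrial and cytosolic genes was not tested.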

How the data were processed

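Total RNA from sorted LSK cells was amplified from 10 ng, labelled with Cy3 and hybridised to 4 one-colour Agilent arrays. The deposited values used here are the processed signal intensity of each spot, background-corrected by the authors with Agilent Feature Extraction (version 9.5.3.1 per the file headers, 9.1 per the submitters' processing notes), with probe positions in mm9. The deposited series table, also linear intensity, differs from these signals by a fraction of at most 0.00496.

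Control and outlier spots were left out, log2 intensity was centred on the 75th percentile of each array, and spots of one probe were averaged. Tested were the probes with a value on all 4 arrays that passed the scanner's background flag on each array of at least 1 genotype (22008 of 41174). Meis1-KO was compared with Meis1-WT with limma 3.58.1 in R 4.3.3, without the slide as a block, with Benjamini-Hochberg adjustment over all tested probes. Array intensities give no counts, so precision rests on 2 pools per genotype. The p-values and SEs of limma combine the spread of a probe between these pools with a variance estimated from all tested probes. The script was tested on simulated data, with a log2 change of 3 given to 200 of 22008 probes and the same noise on every array. It called 90% of the changed probes and 202 unchanged ones. Changes as small as those of the members, and an array that stands apart, were not simulated.

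The members and all gene lists were chosen with earlier results of these data known. Named genes were the 5 lowest and 5 highest of each subunit, the stalk genes and Rpsa, the X-linked genes, 7 genes of Diamond-Blackfan anemia, Rps27a, Rps6 and Rpl22, any called gene, genes whose probes span over 1, and the lowest and highest of each list; 1 gene that this rule names is not reported here. Replicate number equals slide. Across the tested probes, the deviations of the first Meis1-KO and the first Meis1-WT array from their genotype means had a correlation of 0.27. With 2 arrays per genotype the second pair mirrors the first. The block was run as an alternative. The values were recomputed under 16 other settings and, chosen after seeing the data, under 2 more, no scaling and the probe on the chromosome of the gene. Gene symbols and promoters came from RefSeq (76 of 77 members by symbol, Rps3a by synonym). One probe per gene can hide others, and the values of other probes are given for some genes where they differ.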

Additional observations from a re-analysis of the deposited data

How the results depend on the processing

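The count of 0 ribosomal protein genes called held in each of the 18 alternatives, none of which can show that the genotypes were alike with 2 pools each. The subunit medians kept their sign in all but a few: without scaling the large subunit gave -0.017, and leaving out 1 array gave -0.11 to 0.88 for the large and -0.14 to 1.01 for the small subunit, below 0 only without the second Meis1-KO array. The number of genes with one sign on both slides was 11, and 5 with median scaling, 35 with quantile normalization and 33 without scaling. Of the 31 genes named, the sign of the difference turned in 19 without the second Meis1-KO array, in 12 without scaling, in 8 with quantile normalization, in 5 with normexp and in at most 4 under the others. The slide as a replicate block changed no call among the members (0 of 77), and took the other lists from 0 to 1 gene called, while leaving out an array gave 0 to 16 of 246, the most without the first Meis1-KO array, where 10.1% of all probes were called. The cause of these shifts was not tested, beyond the scaling itself and the smaller number of arrays.

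Differences under quantile normalization, normexp and no scaling, in that order, were -0.22, -0.16 and -0.34 for Rpl13a, -0.26, -0.14 and -0.31 for Rpl5, -0.16, -0.058 and -0.22 for Rps3a, -0.15, -0.17 and -0.34 for Rpsa, -0.087, -0.12 and -0.36 for Rpl7l1, and -0.039, -0.017 and -0.20 for the median of the initiation factors. The other TOP mRNAs had a median of -0.0044 with quantile normalization and -0.034 without scaling. Without scaling the medians were also negative for elongation factors (-0.059), RNA polymerase I machinery (-0.11), small nucleolar particle proteins (-0.093), small subunit assembly (-0.16) and large subunit assembly (-0.25), where all tested probes had -0.30.

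Leaving out 1 array at a time gave differences from -0.46 to 0.54 for Rpl13a, -0.0046 to 1.32 for Rpl22, -0.16 to 1.28 for Rpl35a, -0.10 to 0.24 for Rpl5, -0.11 to 1.23 for Rps12, -0.12 to 1.29 for Rps27a, -0.016 to 0.34 for Rps3a and -0.38 to 0.46 for Rpsa. List medians ran from -0.049 to 0.83 for elongation factors, 0.0035 to 0.34 for initiation factors, 0.081 to 0.17 for large subunit assembly, -0.034 to 0.65 for other TOP mRNAs, -0.073 to 0.49 for RNA polymerase I machinery, -0.050 to 0.55 for small nucleolar particle proteins, -0.00038 to 0.47 for small subunit assembly, -0.044 to 0.99 for paralogs and -0.032 to 0.98 for mitochondrial ribosomal proteins. Single genes of these lists ran from -0.049 to 1.10 (Eef1d), -0.35 to 0.13 (Eef2), -0.0069 to 1.10 (Eif3l), -3.45 to 0.67 (Eif5b), -1.94 to 0.71 (Mdn1), -0.66 to 0.36 (Mrps23), -2.49 to 0.28 (Nolc1), -0.26 to 1.40 (Nop10), -0.52 to 0.13 (Pabpc1), -0.041 to 1.78 (Polr1c) and -0.21 to 0.24 (Rpl7l1). The sign held but the size changed, being smallest without the second Meis1-KO array and largest without the first, in Rpl4 (-0.19 to -1.35), Rps23 (0.041 to 1.03), Rps28 (0.020 to 1.06), Dkc1 (-0.043 to -1.23), Gnb2l1 (0.011 to 1.19), Tsr2 (-0.029 to -0.96), Nat10 (0.31 to 1.63), Nle1 (0.14 to 1.60), Mrpl14 (0.083 to 1.80) and Rps27l (0.12 to 1.40).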
